A study of Mus musculus with 9 samples.

Results

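Ribosomes are built in the nucleolus. RNA polymerase I (Pol I) transcribes a long precursor of ribosomal RNA (rRNA), small nucleolar ribonucleoproteins (snoRNPs) modify and help to cleave it, and separate sets of assembly factors turn its parts into the small and the large ribosomal subunit. The demand for this pathway follows growth and division, and Myc proteins are well-known activators of its genes. The genes described here encode 51 of these factors, taken by name from a list and matched to probe sets through the platform's gene symbols. That list was chosen with earlier results of these data known. Its shares beside those of all genes are therefore descriptions and not independent support. The match found 50 of them among 20405 named genes, and Npm3 was not analysed here.

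RNA came from the aorta-gonad-mesonephros (AGM) region, in which the first blood stem cells of the embryo arise from the endothelium of the dorsal aorta. All embryos were C57Bl6 mice at stage E11.5, with no other genotype or treatment named in the labels. The sort used CD144 (an adhesion protein of endothelial cells, also called VE-cadherin) and CD45 (a surface phosphatase of white blood cells and their progenitors) to separate endothelial cells (EC, CD144+CD45-), stem and progenitor cells (HSPC, CD144+CD45+) and other blood cells (HC, CD144-CD45+), with 3 arrays in each of the 3 groups. Whether replicates are separate litters or pools is not stated in the labels, and the p-values below therefore describe variation among these arrays alone, part or all of which may be technical.

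Values are log2 expression values on a shared scale, and differences between groups are log2 differences with the standard error (SE) of a limma fit over all 20405 genes. A gene was called when its Benjamini-Hochberg adjusted p lay under 0.05. The background level of the arrays was taken as 4.69, the value under which 95 percent of 1289 receptor genes of smell and pheromone neurons lay, and 12898 genes had a mean above it. All 50 factors lay above it on every array, the lowest single value being 6.18. Correlation between arrays was 0.985 to 0.992 within HSPC, 0.992 to 0.993 within EC and 0.992 to 0.994 within HC. HSPC replicate 1 stood nearest to EC (0.969 to 0.971), and HSPC replicates 2 and 3 stood nearer to HC (0.968 to 0.979). The genes of the sorted proteins followed the sort. Cdh5 (CD144) had means of 11.70 ± 0.14 in EC, 10.47 ± 0.68 in HSPC and 5.79 ± 0.65 in HC (SD, n = 3). Ptprc (CD45) had 4.42 ± 0.07 in EC, which is at background, 8.90 ± 0.26 in HSPC and 9.95 ± 0.10 in HC.

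Ribosome assembly factors were expressed in all 3 populations and stood highest in HSPC. The mean was highest in HSPC for 43 of the 50 factors, in EC for 5 (Utp3, Bysl, Ltv1, Nol10 and Mrto4) and in HC for 2 (Heatr1 and Nip7), whereas HSPC had the highest mean for 25.4% of genes above background. The differences were small. Over the 50 factors the median difference was 0.31 between HSPC and EC (1.24-fold), 0.24 between HSPC and HC (1.18-fold) and 0.06 between HC and EC (1.04-fold), against medians over all named genes of 0.01, -0.03 and 0.05. In bulk samples such as these, more cells with high expression and more RNA per cell cannot be told apart.

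**Figure D1:**
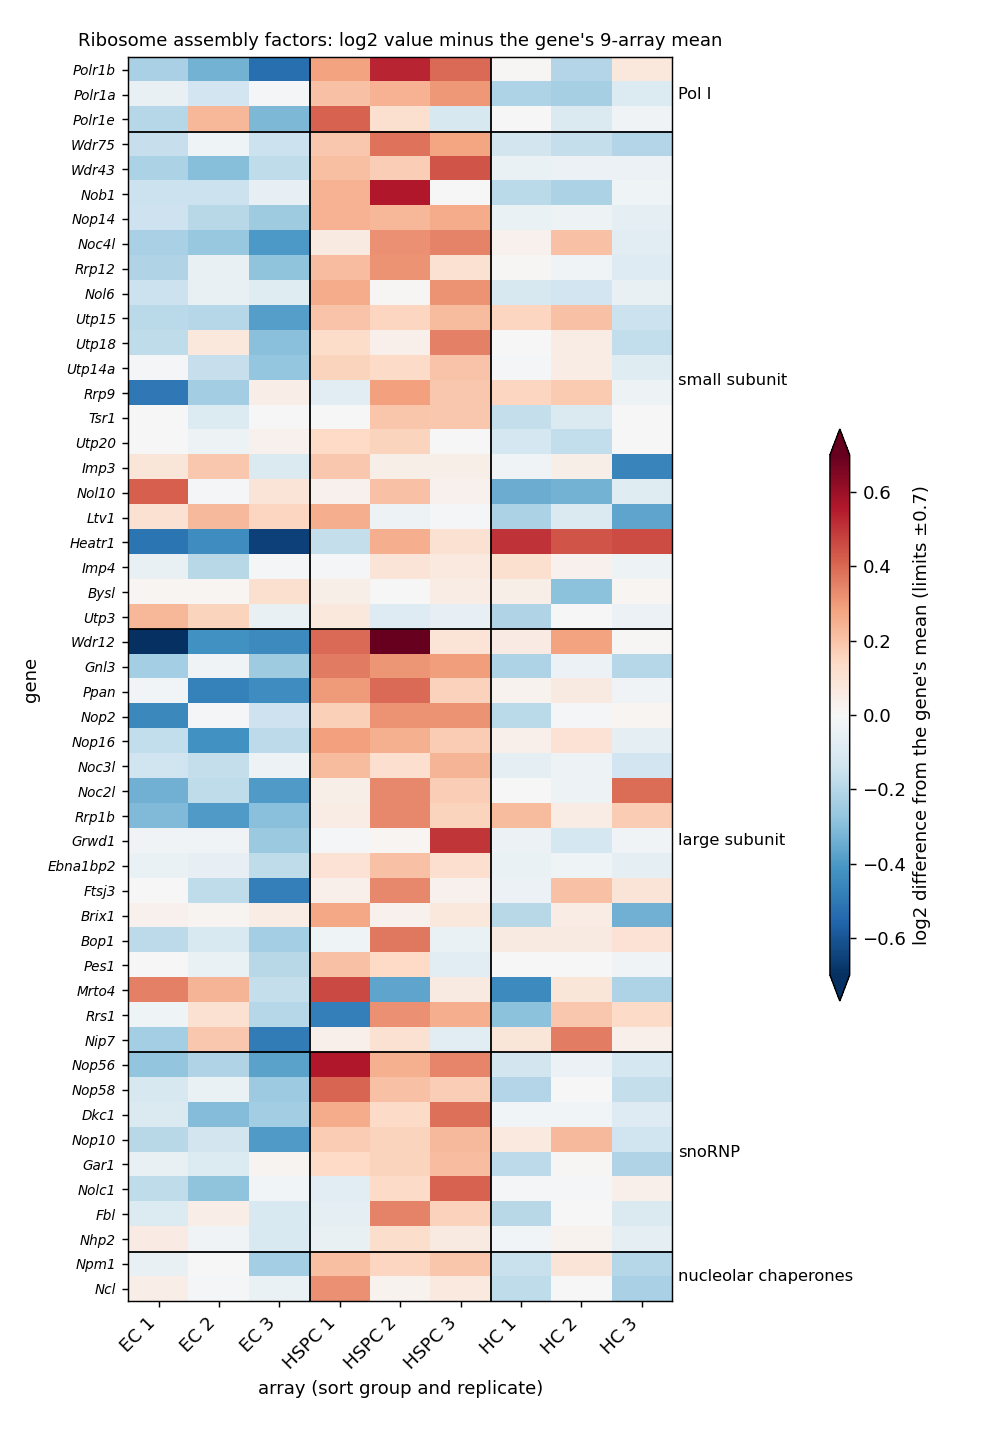
Each row is 1 ribosome assembly factor and each column 1 array, coloured by the log2 value minus that gene's mean over the 9 arrays (red higher, blue lower, limits at 0.7 either way), with rows grouped by step. The 3 HSPC columns are mostly red, while Heatr1 is red in HC and Ltv1 and Nol10 are blue there.

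The pattern was alike on the 3 HSPC arrays. Each factor was centred on its own mean over the 9 arrays, and the median of the 50 centred values was then 0.18, 0.18 and 0.17 on HSPC replicates 1, 2 and 3. It was -0.13, -0.08 and -0.19 on the EC arrays and -0.04, -0.0033 and -0.06 on the HC arrays. HSPC replicate 1, the array nearest to EC over all genes, was thus level with the other HSPC arrays in these factors. Over all named genes the same medians lay between -0.03 and 0.03 on every array. For 21 of the 50 factors (42%) the 3 HSPC arrays lay above all 6 other arrays, which was so for 3.64% of all named genes and 5.31% of genes above background. For 0 factors did the 3 HSPC arrays lie below all others (2.39% of all named genes, 2.92% above background), and for 1, Heatr1, the 3 HC arrays lay above the 3 HSPC arrays (16.3% of all named genes).

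Against EC, 23 of the 50 factors were higher in HSPC and 0 lower, where 8.55% of all named genes were called higher and 7.94% lower (13.1% and 11.7% of genes above background). At an unadjusted p under 0.05, 32 differed, 0 of them lower in HSPC. The share of all genes at that looser threshold was not counted, and the shares above do not apply to it. The called differences ran from 0.23 for Ebna1bp2 to 0.94 for Wdr12. Between HSPC and HC, 11 factors were higher in HSPC and 1 was lower, against 7.01% and 7.61% of all named genes (10.8% in each direction above background). Without HC replicate 1 the first of these counts was 5, without HSPC replicate 1 or HC replicate 3 it was 6, and without HSPC replicate 3 it was 7. It was 6 with only the groups compared in the fit. Repeated quantile normalization gave 17 higher and 0 lower. The single lower call, Heatr1, was absent in 7 of the 9 fits that leave out an array. Both comparisons use the same HSPC arrays and are not independent of each other.

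**Figure D2:**
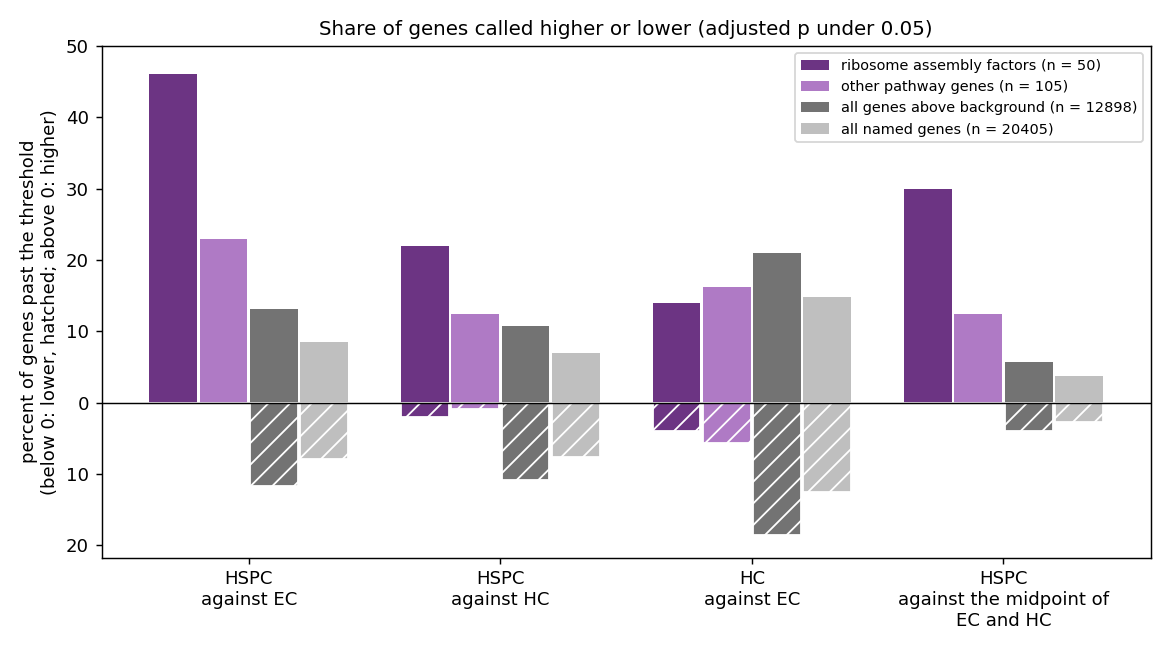
Bars give the percent of genes called higher (above 0) or lower (below 0, hatched) in the first-named group of 4 comparisons, for the ribosome assembly factors, the other genes of the pathway, the genes above background and all named genes. In HSPC against EC the bar of the 50 factors reaches 46% and has no part below 0, and in HC against EC it stands at 14%, under the 21.0% of genes above background.

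HSPC were also set against the midpoint of EC and HC, which asks in a single test whether HSPC depart from the mean of those group means on the log2 scale. RNA of mixed cells adds before logarithms are taken, so this is not a test of departure from a mixture. Of the 50 factors 15 were higher in HSPC and 0 lower, against 3.79% and 2.77% of all named genes (5.74% and 4.05% above background). The median difference from the midpoint was 0.25, and 49 of the 50 factors were on the positive side, Utp3 at -0.04 being the exception. Of all named genes 44.5% were on that side, and 50.8% of genes above background. The 50 values come from the same arrays and are not independent of each other. The count was 9 without HSPC replicate 1, HC replicate 1 or HC replicate 3. Polr1a, Polr1b, Wdr43, Wdr75, Nop14, Gnl3 and Nop56 were called in every leave-one-out fit of this comparison. Between HC and EC, 7 factors were higher in HC and 2 lower, against 14.8% and 12.6% of all named genes. The share of 14% called higher was near that of all named genes and under the 21.0% of genes above background. The 7 higher calls became 4 without EC replicate 1, HC replicate 1, HC replicate 2 or HSPC replicate 3. The 2 lower calls became 1 in 7 of the 9 fits. With repeated quantile normalization 3 were higher and 4 lower, and with median centring 3 were higher and 2 lower.

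**Figure D3:**
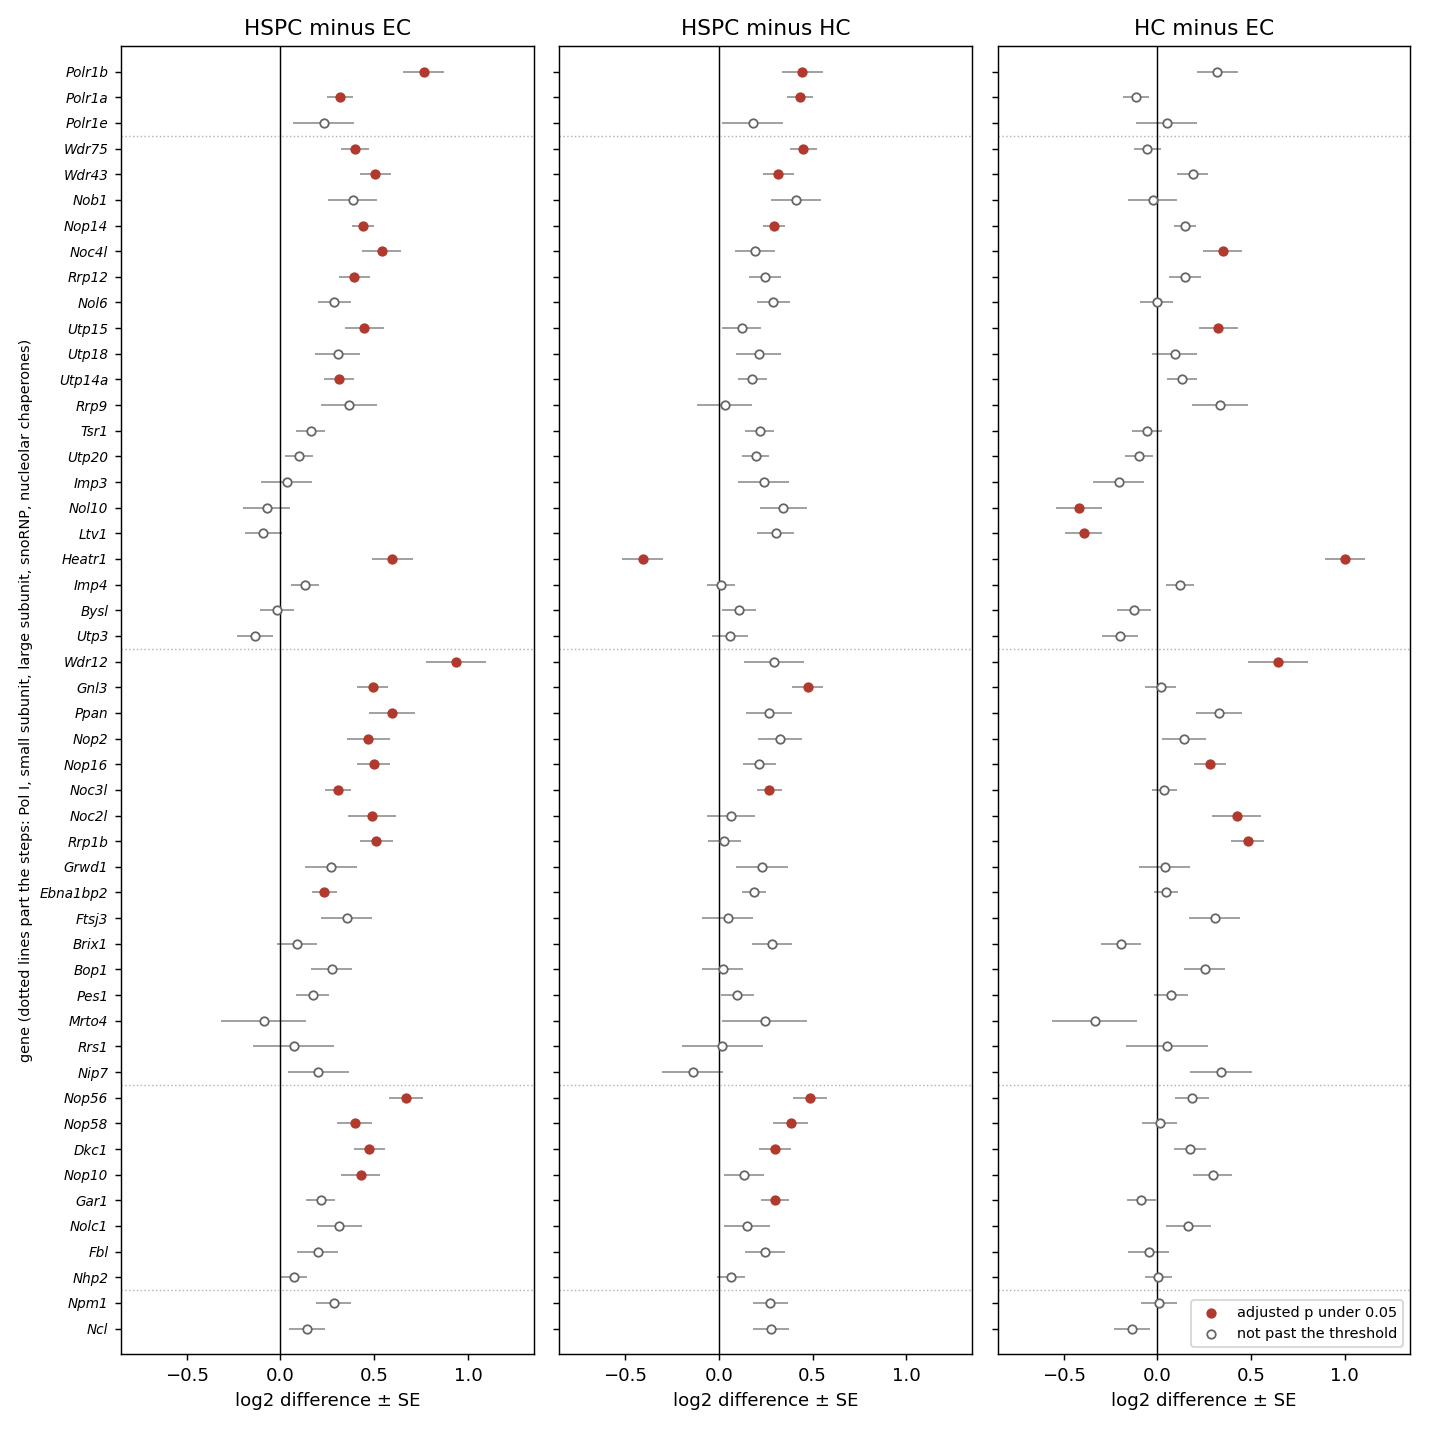
Points are the log2 differences of the 50 ribosome assembly factors between the groups named above each panel, with bars of 1 SE, and filled points are past the adjusted p of 0.05. In the left panel 45 of the 50 points lie to the right of 0, where 52.8% of all named genes and 55.1% above background do. In the middle panel 48 do, against 41.2% and 48.2%. In the right panel Heatr1 stands furthest out at 1.0.

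The promoters of these genes were read for the E-box CACGTG, the core sequence bound by Myc with its partner Max and by several other factors, which reads the same on both strands. RefSeq promoters (GRCm38.p6, 250 bases before the gene start to 50 after it) were found for 44 of the 50 factors, and for Rrp12, Nol6, Bop1, Rrs1, Fbl and Npm1 there was no entry. The E-box stood in a promoter of 9 of the 44 genes (20.5%), of 17 of 84 other genes of the pathway (20.2%), of 9.39% of all measured genes and of 1174 of the 10236 above background, and in 7.15% of all promoters in the table. It stood in 2 of 22 factors higher in HSPC than in EC and in 7 of the 22 that were not called. The 9 sites are shown with up to 12 bases on either side, read 5′ to 3′ on the gene's strand with the E-box in capitals, since they are the shared sequence feature that was looked for. A match is a description of the letters and not of binding.
Imp4 (chr1:34439696-34439725, + strand): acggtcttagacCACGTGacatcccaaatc
Nop2 (chr6:125131811-125131840, + strand): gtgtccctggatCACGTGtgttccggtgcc
Grwd1 (chr7:45830740-45830767, - strand): gggccggagtcgCACGTGtgaaaccgga
Ltv1 (chr10:13193092-13193121, - strand): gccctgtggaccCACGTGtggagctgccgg
Utp20 (chr10:88826765-88826789, - strand): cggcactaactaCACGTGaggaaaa
Pes1 (chr11:3963965-3963994, + strand): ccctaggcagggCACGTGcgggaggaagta
Tsr1 (chr11:74898092-74898121, + strand): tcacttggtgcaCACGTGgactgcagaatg
Utp18 (chr11:93885769-93885798, - strand): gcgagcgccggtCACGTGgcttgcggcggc
Wdr43 (chr17:71616220-71616249, + strand): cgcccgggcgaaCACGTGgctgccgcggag

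The upstream 250 bases are shown for 3 factors that were higher in HSPC than in EC, drawn from the Pol I, snoRNP and large-subunit steps. Polr1b and Nop56 hold no E-box there, while Nop2 has 1, which starts 60 bases before the gene start.
Polr1b (chr2:129100746-129100995, + strand): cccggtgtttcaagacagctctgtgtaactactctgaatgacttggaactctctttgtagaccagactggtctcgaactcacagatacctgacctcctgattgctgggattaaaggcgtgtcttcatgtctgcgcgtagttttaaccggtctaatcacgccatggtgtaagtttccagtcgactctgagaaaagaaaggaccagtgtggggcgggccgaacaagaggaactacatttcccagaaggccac
Nop56 (chr2:130274162-130274411, + strand): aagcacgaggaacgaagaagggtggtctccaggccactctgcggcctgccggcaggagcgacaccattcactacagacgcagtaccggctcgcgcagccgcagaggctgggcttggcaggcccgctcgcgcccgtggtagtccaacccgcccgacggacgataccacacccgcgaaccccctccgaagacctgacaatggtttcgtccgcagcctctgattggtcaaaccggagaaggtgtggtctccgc
Nop2 (chr6:125131633-125131882, + strand): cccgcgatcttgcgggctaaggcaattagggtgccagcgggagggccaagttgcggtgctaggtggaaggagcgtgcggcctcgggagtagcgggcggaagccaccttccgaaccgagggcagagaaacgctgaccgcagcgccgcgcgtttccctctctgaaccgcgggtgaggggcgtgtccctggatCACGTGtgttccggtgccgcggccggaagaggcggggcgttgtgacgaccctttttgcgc

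Pol I itself was represented by 3 subunits, and both catalytic ones rose in HSPC. Polr1a, the largest subunit, gave 7.94, 7.85 and 7.98 on the EC arrays, 8.20, 8.23 and 8.30 on the HSPC arrays and 7.77, 7.76 and 7.89 on the HC arrays. The HSPC arrays lay above all others, and EC and HC overlapped. Polr1a was higher in HSPC, by 0.32 ± 0.07 SE against EC (adjusted p = 0.0119) and by 0.43 ± 0.07 against HC (adjusted p = 0.00362). Polr1b, which completes the catalytic core with Polr1a, gave 6.67, 6.56 and 6.37 in EC, 7.18, 7.43 and 7.29 in HSPC and 6.90, 6.69 and 6.97 in HC. Again the HSPC arrays were the 3 highest, and EC were the 3 lowest. Its difference was 0.76 ± 0.11 SE from EC (adjusted p = 0.00152) and 0.44 ± 0.11 from HC (adjusted p = 0.0270). The call against HC was lost without HC replicate 1 or 2 or HSPC replicate 2 or 3 (adjusted p up to 0.0866), and with the replicate number as a block. Polr1e, a peripheral subunit that assists initiation and elongation in yeast, gave 6.29, 6.72 and 6.18 in EC, 6.90, 6.60 and 6.38 in HSPC and 6.49, 6.39 and 6.47 in HC. Its groups overlapped, and no comparison passed the threshold.

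**Figure D4:**
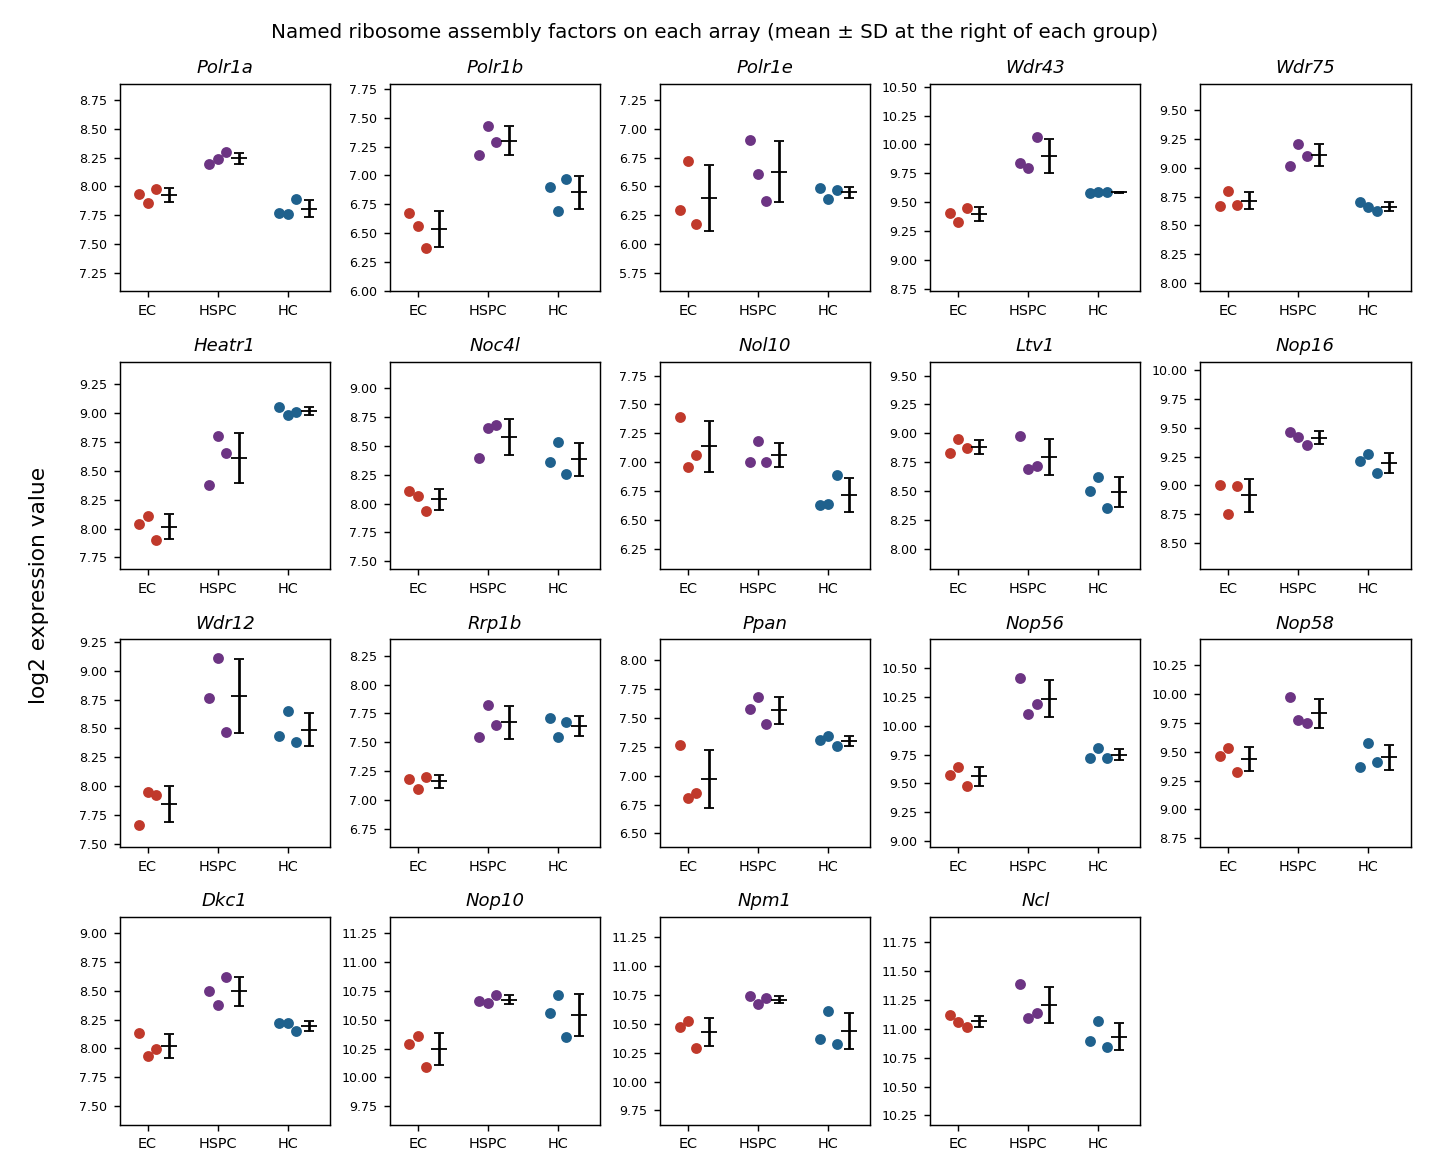
Each panel shows the log2 value of 1 ribosome assembly factor on the 9 arrays (points, by sort group) with the group mean and SD to the right of the points, and all panels span the same log2 range of 1.8. In the panels of Polr1a, Polr1b, Wdr75 and Nop56 every HSPC point lies above every EC and HC point, and in the panel of Heatr1 the HC points are the highest.

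Small-subunit factors, which work on the 18S rRNA side of the precursor, numbered 20. Of these, 8 (40%) were higher in HSPC than in EC and 0 lower, with a median of 0.31. Against HC 3 (15%) were higher and 1 lower, with a median of 0.21. Of genes above background, 13.1% were called higher against EC and 10.8% against HC. The t-UTP proteins bind the start of the precursor and tie its transcription to processing. The 4 of them among these 20 factors, Wdr43, Wdr75, Utp15 and Heatr1, were all higher in HSPC than in EC. They are not the whole complex, and they were grouped after the values were seen. Utp15 differed by 0.45 ± 0.10 SE (adjusted p = 0.0164), a call lost without HSPC replicate 3 or EC replicate 3 (adjusted p up to 0.0602). The paired factors Nop14 and Noc4l were both called as well. The other called factors of the step were Rrp12 and Utp14a, which activates an RNA helicase of the small-subunit particle. Utp14a differed by 0.31 ± 0.08 SE (adjusted p = 0.0269), lost without any 1 HSPC array or EC replicate 2 or 3 (adjusted p up to 0.0881), with median centring and with only the groups compared. Utp15 was also called in HC against EC, at 0.33 ± 0.10 SE (adjusted p = 0.0443), lost in 8 leave-one-out fits, all but that without HC replicate 3 (adjusted p up to 0.142), and in 4 other settings including both scalings.

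Wdr43 gave 9.40, 9.33 and 9.45 in EC, 9.84, 9.80 and 10.07 in HSPC and 9.58, 9.58 and 9.58 in HC, so that the 3 groups did not overlap. It was higher in HSPC, by 0.51 ± 0.08 SE against EC (adjusted p = 0.00279) and by 0.32 ± 0.08 against HC (adjusted p = 0.0319). The latter call was lost in 6 of the 9 leave-one-out fits, without HSPC replicate 1 or 3, EC replicate 1 or any of the HC arrays (adjusted p up to 0.0833), and with only the groups compared. Wdr75 gave 8.67, 8.80 and 8.68 in EC, 9.02, 9.21 and 9.11 in HSPC and 8.70, 8.66 and 8.62 in HC. HSPC stood above both other groups, which overlapped. Its differences were 0.40 ± 0.07 SE from EC (adjusted p = 0.00539) and 0.45 ± 0.07 from HC (adjusted p = 0.00401), and both held in all 9 leave-one-out fits.

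Heatr1, the large HEAT-repeat protein of the same complex, went another way. It gave 8.04, 8.11 and 7.90 in EC, 8.38, 8.80 and 8.65 in HSPC and 9.06, 8.99 and 9.01 in HC, a rise from EC through HSPC to HC with no overlap. HC exceeded EC by 1.0 ± 0.11 SE (adjusted p = 0.000125), the largest difference of any factor in the 3 pairwise comparisons. HSPC exceeded EC by 0.60 ± 0.11 (adjusted p = 0.00535) and were lower than HC, at -0.40 ± 0.11 (adjusted p = 0.0384). The difference from HC was lost with repeated quantile normalization, the replicate block or only the groups compared, and in 7 leave-one-out fits, all but those without HSPC replicate 2 or EC replicate 3 (adjusted p up to 0.11).

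Noc4l, a partner of Nop14 in yeast, gave 8.11, 8.07 and 7.93 in EC, 8.39, 8.65 and 8.68 in HSPC and 8.36, 8.54 and 8.26 in HC. All EC arrays were lowest, and HSPC and HC overlapped. It was higher than in EC by 0.54 ± 0.10 SE in HSPC (adjusted p = 0.00728) and by 0.35 ± 0.10 in HC (adjusted p = 0.0365), the call in HC being lost without any 1 EC array or HC replicate 1 or 2 (adjusted p up to 0.119) and under both scalings. Nop14 had the smallest adjusted p among the factors in HSPC against EC, at 0.44 ± 0.06 SE (adjusted p = 0.000975), and exceeded HC by 0.29 ± 0.06 (adjusted p = 0.0101). Its 3 HSPC arrays, at 8.49, 8.48 and 8.51, lay above HC at 8.21, 8.22 and 8.18 and EC at 8.11, 8.05 and 8.0.

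Of 5 factors of the late, partly cytoplasmic steps of small-subunit maturation, 1 was higher in HSPC than in EC. Over all named genes 8.55% were, and 13.1% of genes above background. These 5 were grouped after the values were seen, and a difference from the other steps was not tested. Rrp12, which acts in export of pre-ribosomes in yeast, was higher in HSPC, against EC, by 0.39 ± 0.08 SE (adjusted p = 0.0115). Nob1, the endonuclease that makes the mature end of 18S rRNA, Tsr1, Bysl and Ltv1 were not called in HSPC against EC, at 0.39, 0.16, -0.02 and -0.09. Ltv1, which is released from the nascent subunit before its last maturation, gave 8.83, 8.95 and 8.87 in EC, 8.97, 8.69 and 8.72 in HSPC and 8.5, 8.62 and 8.35 in HC. All HC arrays were lowest, and EC and HSPC overlapped. It was lower in HC than in EC, at -0.39 ± 0.10 SE (adjusted p = 0.0166), a call lost without EC replicate 2 or HC replicate 3 (adjusted p up to 0.06). Nol10, the homologue of yeast Enp2 in early small-subunit particles, gave 7.39, 6.96 and 7.06 in EC, 7.0, 7.18 and 7.0 in HSPC and 6.63, 6.64 and 6.89 in HC. EC lay above HC on all arrays, and HSPC overlapped EC. It was lower in HC than in EC, at -0.42 ± 0.12 SE (adjusted p = 0.0342), lost without EC replicate 1 or 3, HC replicate 1 or 2 or HSPC replicate 3 (adjusted p up to 0.111), with the replicate block and with only the groups compared. Imp3, Imp4 and Utp3, which act with Mpp10, had no call in any comparison. Nor did Utp18, Utp20, Rrp9 (a protein of the U3 snoRNP), Nol6, Nob1, Tsr1 or Bysl. Nol6 missed the threshold at 0.29 ± 0.09 SE from EC (adjusted p = 0.0568) and 0.29 ± 0.09 from HC (adjusted p = 0.0588).

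Large-subunit factors numbered 17. Of them 9 were higher in HSPC than in EC and 0 lower, at a median of 0.31. The share higher was 52.9%, against 13.1% of genes above background. Against HC 2 were higher, Gnl3 and Noc3l, at a median of 0.22. That share of 11.8% was near the 10.8% of genes above background. Noc3l exceeded HC by 0.27 ± 0.07 SE (adjusted p = 0.03), a call lost without HSPC replicate 1 or 3 or any HC array (adjusted p up to 0.0941) and in 4 other settings including repeated quantile normalization and the replicate block. Wdr12 had the largest difference of all 50 factors between HSPC and EC. It gave 7.66, 7.95 and 7.93 in EC, 8.77, 9.11 and 8.47 in HSPC and 8.43, 8.65 and 8.38 in HC, with all EC arrays below the others and HSPC and HC overlapping. Its difference from EC was 0.94 ± 0.16 SE in HSPC (1.91-fold, adjusted p = 0.00376) and 0.64 ± 0.16 in HC (adjusted p = 0.0151, lost without EC replicate 1 or HC replicate 2, adjusted p up to 0.0602). Wdr12 works in a trimer with Pes1 and Bop1, the PeBoW complex. Pes1 and Bop1 were not called, at 0.17 ± 0.09 and 0.27 ± 0.11 SE in HSPC against EC, and whether they differ from Wdr12 was not tested.

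Ppan, the homologue of yeast Ssf1, gave 7.27, 6.81 and 6.85 in EC, 7.58, 7.68 and 7.45 in HSPC and 7.31, 7.35 and 7.26 in HC. HSPC lay above all others, by 0.59 ± 0.12 SE from EC (adjusted p = 0.00976) and by 0.27 ± 0.12 from HC (adjusted p = 0.208). Nop16, a factor of early large-subunit particles, gave 9.0, 8.75 and 8.99 in EC, 9.46, 9.42 and 9.35 in HSPC and 9.21, 9.28 and 9.10 in HC, and the 3 groups did not overlap. It was higher than in EC by 0.50 ± 0.09 SE in HSPC (adjusted p = 0.00425) and by 0.28 ± 0.09 in HC (adjusted p = 0.0409). The call in HC was lost in 6 leave-one-out fits, without EC replicate 2, HC replicate 1 or 2 or any HSPC array (adjusted p up to 0.124), and in 4 other settings including both scalings and the replicate block. Rrp1b, a homologue of yeast Rrp1, gave 7.18, 7.09 and 7.20 in EC, 7.54, 7.83 and 7.65 in HSPC and 7.71, 7.54 and 7.67 in HC. It stood above EC in both other groups, by 0.51 ± 0.09 SE in HSPC (adjusted p = 0.00376) and 0.48 ± 0.09 in HC (adjusted p = 0.00273), with HSPC and HC overlapping.

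Gnl3 (nucleostemin), a nucleolar GTP-binding protein known from stem cells, was above both groups. It gave 8.69, 8.90 and 8.68 in EC, 9.29, 9.24 and 9.22 in HSPC and 8.71, 8.89 and 8.73 in HC. EC and HC overlapped, and HSPC exceeded them by 0.49 ± 0.08 SE (adjusted p = 0.00353) and 0.47 ± 0.08 (adjusted p = 0.0059), calls that held in all 9 leave-one-out fits. The rRNA methyltransferase Nop2 was higher in HSPC, against EC, by 0.47 ± 0.12 SE (adjusted p = 0.0236). The paired factors Noc2l and Noc3l were higher by 0.49 ± 0.13 (adjusted p = 0.0318) and 0.31 ± 0.07 (adjusted p = 0.014), and Ebna1bp2 by 0.23 ± 0.06 (adjusted p = 0.0377). These calls were lost in some leave-one-out fits. Nop2 was lost without EC replicate 1 or HSPC replicate 2 or 3 (adjusted p up to 0.0801), Noc2l without those or EC replicate 3 (up to 0.109), Noc3l without EC replicate 1 or HSPC replicate 3 (up to 0.0537) and Ebna1bp2 in all but the fit without HSPC replicate 1 (up to 0.129). Nop2 was also lost with only the groups compared, and Ebna1bp2 with that setting, median centring or the replicate block. Noc2l was also called in HC against EC, at 0.42 ± 0.13 SE (adjusted p = 0.0385), lost without EC replicate 1 or 3, HSPC replicate 3 or HC replicate 3 (adjusted p up to 0.118) and in 4 other settings including both scalings and the replicate block. Rrs1, which brings the 5S rRNA particle to the pre-ribosome in yeast, the rRNA methyltransferase Ftsj3, the ribosomal protein chaperone Grwd1, and Brix1, Mrto4 and Nip7 had no call in any comparison. Nor had Pes1 and Bop1. Mrto4 has 2 pseudogenes named after it in RefSeq, so its own share of the signal is uncertain.

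snoRNP proteins numbered 8, and 4 (50%) were higher in HSPC than in EC and 4 (50%) than in HC, with 0 lower in either. The shares over genes above background were 13.1% and 10.8%. Among the box C/D proteins, which carry the guides of rRNA 2′-O-methylation, the scaffold proteins Nop56 and Nop58 were called in both comparisons. Nop56 gave 9.57, 9.64 and 9.48 in EC, 10.41, 10.10 and 10.19 in HSPC and 9.72, 9.81 and 9.72 in HC. The 3 groups did not overlap, and HSPC stood above EC by 0.67 ± 0.09 SE (1.59-fold, adjusted p = 0.00111) and above HC by 0.48 ± 0.09 (1.40-fold, adjusted p = 0.00792). Both calls held in all 9 leave-one-out fits. Nop58 gave 9.46, 9.53 and 9.32 in EC, 9.98, 9.78 and 9.75 in HSPC and 9.37, 9.57 and 9.41 in HC, with HSPC above all others. It differed by 0.40 ± 0.09 SE from EC (adjusted p = 0.0188) and 0.38 ± 0.09 from HC (adjusted p = 0.0259). The first call was lost without HSPC replicate 1 or EC replicate 1 or 3 (adjusted p up to 0.0678) and with median centring (adjusted p = 0.0578), the latter without HSPC replicate 1 or HC replicate 1 or 3 (up to 0.0875) and with only the groups compared (adjusted p = 0.0511). Fbl (fibrillarin), the methyltransferase of these particles, was not called, at 0.20 ± 0.11 SE from EC (adjusted p = 0.307) and 0.25 ± 0.11 from HC (adjusted p = 0.188). Fbl has 1 pseudogene named after it.

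Box H/ACA proteins guide pseudouridine formation and also belong to telomerase. Dkc1, their catalytic protein, gave 8.14, 7.93 and 7.99 in EC, 8.49, 8.37 and 8.62 in HSPC and 8.22, 8.22 and 8.15 in HC, and its 3 groups did not overlap. It was higher in HSPC, by 0.48 ± 0.08 SE against EC (adjusted p = 0.00459) and by 0.30 ± 0.08 against HC (adjusted p = 0.0449). The call against HC was lost in 7 leave-one-out fits, all but those without EC replicate 1 or HSPC replicate 2 (adjusted p up to 0.137), and in 4 other settings including the replicate block. Nop10 gave 10.29, 10.36 and 10.09 in EC, 10.67, 10.65 and 10.72 in HSPC and 10.56, 10.72 and 10.35 in HC. HSPC lay above EC by 0.43 ± 0.11 SE (adjusted p = 0.0233) and overlapped with HC, the call being lost without EC replicate 1 or 3 or HSPC replicate 2 or 3 (adjusted p up to 0.0789) and with median centring (adjusted p = 0.0598). Gar1 was called against HC, at 0.30 ± 0.08 SE (adjusted p = 0.0309, lost in 6 leave-one-out fits without an HSPC array, EC replicate 1 or HC replicate 1 or 3, adjusted p up to 0.0967, with the replicate block and with only the groups compared). Nhp2 differed by 0.07 or less in every pairwise comparison, and Nolc1, a chaperone of snoRNPs, was not called.

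The nucleolar chaperones Npm1 and Ncl had no call. Npm1 (nucleophosmin) gave 10.47, 10.52 and 10.29 in EC, 10.74, 10.67 and 10.72 in HSPC and 10.37, 10.61 and 10.32 in HC. All HSPC arrays lay above the others, with differences of 0.28 ± 0.09 SE from EC (adjusted p = 0.0813) and 0.28 ± 0.09 from HC (adjusted p = 0.0939). Ncl (nucleolin) gave 11.12, 11.06 and 11.02 in EC, 11.39, 11.09 and 11.14 in HSPC and 10.89, 11.07 and 10.84 in HC. HSPC and EC overlapped, and HSPC lay above HC on all arrays by 0.28 ± 0.10 SE (adjusted p = 0.097).

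In all, 24 of the 50 factors had no call in any comparison. By step these were 1 of 3 in Pol I, 10 of 20 in the small subunit, 8 of 17 in the large subunit, 3 of 8 in the snoRNPs and both chaperones. Of the 23 factors higher in HSPC than in EC, 15 were called in all 9 leave-one-out fits and also in all 6 other settings, namely Polr1a, Polr1b, Wdr43, Wdr75, Heatr1, Nop14, Noc4l, Rrp12, Nop16, Wdr12, Rrp1b, Ppan, Gnl3, Nop56 and Dkc1. Of the 11 higher in HSPC than in HC, 5 were (Polr1a, Wdr75, Nop14, Gnl3 and Nop56), and of the 7 higher in HC than in EC, 2 were (Heatr1 and Rrp1b).

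**Figure D5:**
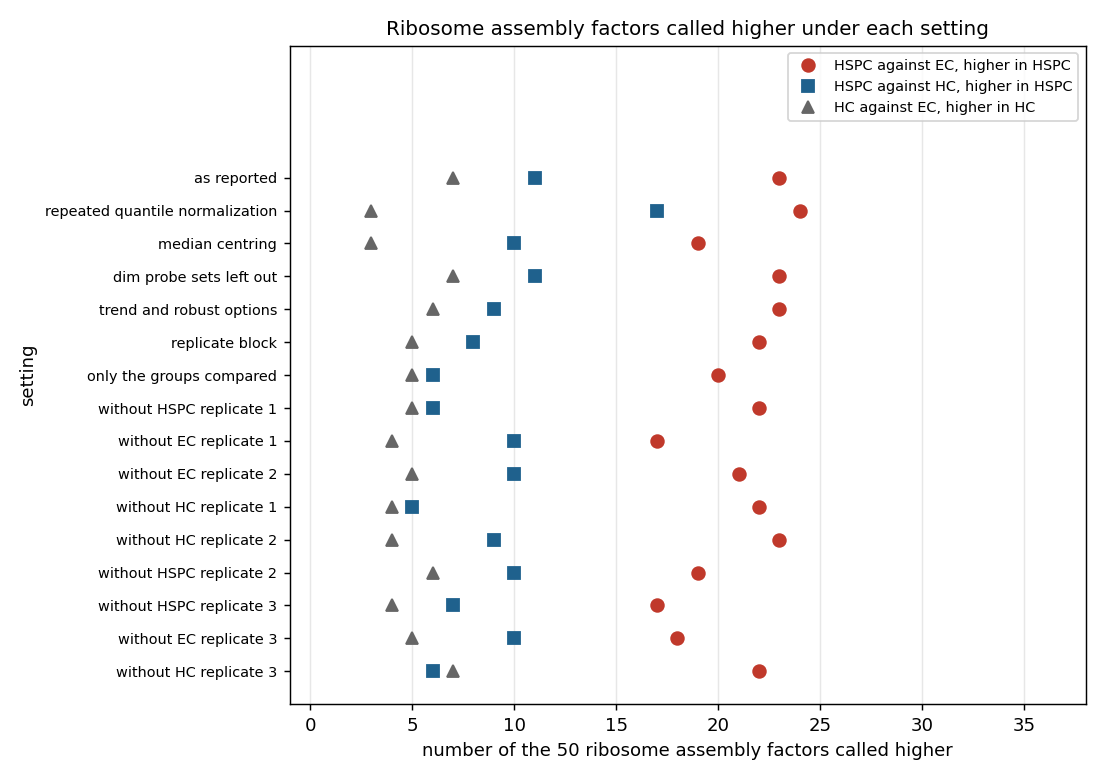
Points give the number of the 50 ribosome assembly factors called higher in the first-named group (x axis) under each setting (y axis), for 3 comparisons. HSPC against EC ranges from 17 to 24, HSPC against HC from 5 to 17 and HC against EC from 3 to 7.

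A wider list of the pathway held 113 further genes, of which 105 were measured. Of these, 24 were higher in HSPC than in EC and 0 lower, with a median of 0.20. The share higher was 22.9%, against 8.55% of all named genes and 13.1% of genes above background. Against HC 13 were higher and 1 lower, with a median of 0.16. That share of 12.4% higher stood against 7.01% of all named genes and was near the 10.8% of genes above background. Between HC and EC 17 were higher and 6 lower, with a median of 0.07. These shares were 16.2% and 5.71%, against 14.8% and 12.6% of all named genes and 21.0% and 18.5% above background. The share called higher was thus near that of all named genes and under that of genes above background. The largest called differences from EC were those of the exosome subunits Exosc5 (1.11 ± 0.10 SE, adjusted p = 0.000151) and Exosc7 (0.81 ± 0.10, adjusted p = 0.000898), parts of the RNA-trimming exosome, and of Naf1, an assembly factor of H/ACA particles (0.70 ± 0.19, adjusted p = 0.0337). Against HC they were those of Exosc2 (0.76 ± 0.18, adjusted p = 0.0209), Naf1 (0.67 ± 0.19, adjusted p = 0.0451) and Gnl3l, a relative of Gnl3 (0.50 ± 0.09, adjusted p = 0.00677). In HC against EC they were Exosc5 (0.95 ± 0.10 SE, adjusted p = 0.00012), Gnl3l (-0.61 ± 0.09, adjusted p = 0.000819) and Zfp622 (0.59 ± 0.09, adjusted p = 0.00104). Gnl3l was low in HC rather than high in HSPC, with means of 7.44 in EC, 7.33 in HSPC and 6.83 in HC. From the midpoint they were Naf1 (0.69), Exosc5 (0.64) and Exosc7 (0.52).

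Several other lists of genes differed between the groups, and their part in the results above was not tested. All 6 progenitor markers (such as Runx1, Myb and Hlf) were higher in HSPC than at the midpoint of EC and HC. Against EC and against HC, 5 were called higher. Their summed level (log2 of the sum) was 12.48 to 12.70 on HSPC arrays, 11.62 to 11.71 on EC and 11.17 to 11.34 on HC. Calls above the midpoint were not particular to this list. They also held for 5 of 6 pan-leukocyte, 5 of 9 macrophage and 4 of 8 endothelial markers. Granulocyte markers had 1 call above it and 4 below. Of 8 granulocyte markers 7 were lower in HSPC than in HC (summed level from 7.61 to 8.84 on the EC arrays, 10.56 to 11.22 on HSPC and 13.50 to 13.84 on HC, with Ltf and Lcn2 at background in EC and HSPC). All 9 macrophage markers were higher in HSPC than in EC, with a median of 4.23, and 8 were lower than in HC (from 7.98 to 8.66 on the EC arrays, 12.15 to 13.44 on HSPC and 14.06 to 14.18 on HC, with Adgre1 at background in EC). All 6 pan-leukocyte markers were higher in HSPC than in EC and 5 were lower than in HC (from 9.74 to 10.03 on the EC arrays, 12.54 to 13.21 on HSPC and 13.79 to 13.85 on HC, with Ptprc, Cd52 and Cd53 at background in EC). All 8 endothelial markers were lower in HC than in EC (from 13.57 to 13.81 on the EC arrays, 11.35 to 12.84 on HSPC and 8.26 to 8.98 on HC, with Tek and Esam at background in HC). Of 6 measured erythroid markers 0 were called in HSPC against EC (from 12.17 to 13.78 on the EC arrays, 12.76 to 13.27 on HSPC and 12.40 to 13.56 on HC). Between HSPC and HC 1 was lower in HSPC, and between HC and EC 1 was higher in HC. Of 8 mesenchymal markers 0 were called in HSPC or HC against EC and 1 was lower in HSPC than in HC (8.65 to 9.21 on the EC arrays, 8.44 to 9.07 on HSPC and 8.63 to 9.12 on HC), with Lum at background in all 3 groups and Dcn in EC and HSPC.

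Growth-related genes were also read. Of 13 measured proliferation genes (such as Mki67, Top2a and the Mcm genes) 5 were higher in HSPC than in EC (38.5%, against 8.55% of all named genes and 13.1% above background) and 5 in HC than in EC (38.5%, against 14.8% and 21.0%), with 0 lower, while between HSPC and HC 0 were higher in HSPC and 1 lower. Their median difference was 0.11 between HSPC and EC and -0.03 between HSPC and HC, against 0.31 and 0.24 for the ribosome assembly factors. Mycn, a Myc family member of embryonic progenitors, gave 7.30, 7.29 and 7.36 in EC, 8.63, 8.25 and 8.27 in HSPC and 6.24, 6.14 and 5.8 in HC. It was higher in HSPC, by 1.07 ± 0.14 SE against EC (adjusted p = 0.00082) and by 2.32 ± 0.14 against HC (adjusted p = 3.63e-05). Myc gave 10.22, 10.13 and 9.94 in EC, 9.85, 10.50 and 10.39 in HSPC and 10.21, 10.29 and 10.35 in HC, with overlapping groups and no call. A list of 8 Myc family and partner genes held both, with Mycl, Max, Mxd1, Mxd4, Mxi1 and Mnt. Its members need not act in the same direction, so its medians are not a measure of Myc activity. Of the 8, 2 were higher in HSPC than in EC and 0 lower, with a median of 0.26. Between HSPC and HC 1 was higher, Mycn, and 1 lower, and the median of -0.18 was opposite in sign to Mycn's difference, the other 7 being below 0. Between HC and EC 5 were higher and 1 lower.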

How the data were processed

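RNA of 9 sorted samples was hybridised to Affymetrix mouse gene arrays after linear amplification of about 5 ng, per the labels' protocols, a step that can change the relative signal of dim genes. The labels name 2 array types, and the array description used is not given in the sources used here. The authors deposited log2 expression values per probe set, made with RMA and Partek, per the submitters' processing notes. The table holds 21115 probe sets, of which 20405 have 1 gene symbol and 710 have none in the platform annotation, and the former were tested. The number of arrays limits the precision. Groups followed the sort label. All 3 groups entered 1 fit with limma 3.58.1 (R 4.3.3; lmFit and eBayes, two-sided), p-values were adjusted over all 20405 genes by Benjamini-Hochberg, and the threshold was 0.05. An exact permutation test of 3 against 3 arrays cannot go below 0.1 and was not used. The step was tested on simulated data of HSPC against EC over 20405 genes. Of 100 genes shifted by 1 on the log2 scale 80% were recovered, and of 100 shifted by 2, 99%. Of the calls 3.24% were false. Both shifts exceeded every called difference of the factors between HSPC and EC (up to 0.94), so recovery at their size was not tested. Far fewer genes were changed than were called in the data, so the false share need not hold there.

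The ribosome assembly factors and all lists were chosen with earlier results of these data known, and the subcomplexes were named after the values were seen. Values on every array are given for all Pol I subunits and chaperones, for the 4 factors of each other step with the largest range between group means, for factors called against the main direction, and beyond that rule for Nop14 and Gnl3, added after their values were seen. Other pathway genes are named up to 3 per comparison, by size of the called difference. Alternatives were repeated quantile normalization, centring on the array median, leaving out dim genes, the trend and robust options, the replicate block, a fit of the 2 groups compared and leaving out each array. Same-numbered samples of different groups had correlations of their deviations from -0.0417 to 0.145 over 9 pairs. Those with different numbers had -0.143 to 0.147. The ranges overlap and do not decide whether the numbers pair samples. The labels do not say so either, and the main fit used no block. Promoters are RefSeq's (GRCm38.p6), and the array values carry no coordinates.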

Additional observations from a re-analysis of the deposited data

How the results depend on the processing

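The median difference of the factors between HSPC and either other group kept its direction under every alternative that was run. For the 19 factors whose array values were given by rule, 51 differences were compared over the settings, and none changed sign. Signs of the other called factors were not compared in this way. The number higher in HSPC than in EC lay between 19 (median centring) and 24 (repeated quantile normalization), was 22 with the replicate block and 17 to 23 with an array left out. Their median difference was 0.24 with median centring and 0.27 to 0.35 with an array left out. For HSPC against HC, 17 were higher with repeated quantile normalization, 6 with only the groups compared, 8 with the replicate block and 5 to 10 with an array left out. The single lower call became 0 under the first 3 of these and 0 to 1 with an array left out. For HC against EC, 3 were higher with repeated quantile normalization and 3 with median centring, 5 with the block and 4 to 7 with an array left out. Lower in HC were 4 with repeated quantile normalization, 1 with the block, 1 with only the groups compared and 1 to 2 with an array left out. That median was 0.018 with median centring and 0.0149 to 0.0988 with an array left out. Against the midpoint, 12 were higher with the block and 9 to 15 with an array left out, and the median was 0.21 with median centring and 0.23 to 0.28 with an array left out. The cause of these shifts was not tested, apart from the smaller number of arrays in fits that drop some. Median centring also moved the share of calls over all genes that were higher in HSPC from 51.8% to 41.3% against EC and from 57.7% to 45.2% against the midpoint. The block is a setting only, because the labels do not say whether equal numbers pair samples. In the data, 4 of 9 arrays correlated best with their own number in both other groups, which does not decide this. Under the block 22 of the 23 calls higher than in EC and 7 of the 11 higher than in HC were kept.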
